A study of Mus musculus with 2 samples.

Results

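The nuclear receptor genes of mouse superficial zone cells were examined in 2 cultures, 1 treated for 24 h with 10 μM retinoic acid and 1 control. Members were the 35 receptors of a list and any further gene whose symbol has the systematic form Nr, digit, letter, digit. The list was chosen with earlier results of these data known. Of the 35 listed receptors 34 were found, and the symbol form added 7, which gave 41 genes with 108 probe sets out of 18193 named genes and 45101 probe sets. Nr1h2, one of the liver X receptor genes, was not analysed here.

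Nuclear receptors are transcription factors that bind DNA through zinc fingers and, in many cases, a small lipophilic ligand through a separate domain. Retinoic acid is the ligand of the retinoic acid receptors (RARs), which bind direct repeats of a hexamer together with a retinoid X receptor (RXR), and RXRs also pair with the receptors for vitamin D, oxysterols, fatty acids and bile acids. In mouse cartilage, the RAR genes are expressed in chondrocytes, where excess retinoic acid is known to reduce matrix synthesis.

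Both cultures were made from the articular surface layer of the femur and tibial joint of ICR mice, an outbred strain, at an age of 4 days, and were grown in medium with 10% serum. The labels do not state the vehicle, the number of animals or whether the cultures came from a common preparation. RNA of each culture was read on 1 Affymetrix Mouse Genome 430 2.0 array, so there were no replicates, no test was run, and each ratio describes these 2 arrays. Values are MAS5 signals, a linear measure of brightness per probe set, and they cannot be set against each other between genes.

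A signal was counted as measured when it lay above the median of its own array (29.7 with retinoic acid and 26.5 in control). For each gene the probe set whose log2 signals averaged highest was used. A gene measured on both arrays has a fold, and a gene measured on 1 array has a bound, written "at least". The scatter of log2 ratios between probe sets of the same gene was an SD of 0.30 over 4993 genes and 0.25 over the 11 receptors that allowed it. That scatter comes from the same RNA and leaves out variation between cultures. All 11 chondrocyte markers were measured on both arrays, and with retinoic acid 7 lay past 2-fold on the lower side and 0 on the higher side. The shares over all genes measured on both arrays were 4.03% and 6.03%. The median log2 ratio of the 11 markers was -1.67, with a summed signal of 34120 with retinoic acid and 68406 in control. The proteoglycan gene Acan was 32.3-fold lower, Sox9, which encodes a chondrocyte transcription factor, 10.8-fold and Hapln1, which encodes link protein, 9.37-fold lower, while the collagen gene Col2a1 was 1.29-fold lower. Of 8 superficial zone markers 7 were measured on both arrays, with a median of -0.55 and a summed signal of 9673 with retinoic acid and 10173 in control over the 8. Among them Sfrp2 was 14.6-fold lower, Clu 5.97-fold higher and the lubricin gene Prg4 1.67-fold lower. The part of these marker differences in the receptor values was not tested. In RNA from whole cultures, fewer cells of a type and less RNA per cell cannot be told apart.

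Promoter sequences are shown for the 3 receptors named first below, because the RAR itself binds a known DNA motif. They are the 250 bases before the annotated start, from RefSeq (build GRCm38.p6), on the strand of the gene. The hexamers searched were AGGTCA (the consensus) and its relative AGTTCA, and likewise GGGTCA and its relative GGTTCA. A DR5 is a direct repeat of any pair of these with 5 bases between, a spacing bound by RAR with RXR. Both strands were searched in the window of 250 bases before and 50 after each start. Capitals mark a DR5, and a window printed without capitals holds none of the hexamers.
Rarb, chr14:16575477-16575726, minus strand: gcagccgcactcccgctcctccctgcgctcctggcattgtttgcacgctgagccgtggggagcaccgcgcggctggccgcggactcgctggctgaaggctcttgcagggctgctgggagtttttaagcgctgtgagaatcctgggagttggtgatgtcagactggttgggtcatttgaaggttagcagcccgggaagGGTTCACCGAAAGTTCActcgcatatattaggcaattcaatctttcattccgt
Nr2f1, chr13:78198874-78199123, minus strand: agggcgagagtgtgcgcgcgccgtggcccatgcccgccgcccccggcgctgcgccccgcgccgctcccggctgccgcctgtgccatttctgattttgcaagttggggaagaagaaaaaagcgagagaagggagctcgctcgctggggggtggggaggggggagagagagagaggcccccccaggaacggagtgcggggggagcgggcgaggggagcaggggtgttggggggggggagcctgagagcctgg
Nr2f2, chr7:70366747-70366996, minus strand: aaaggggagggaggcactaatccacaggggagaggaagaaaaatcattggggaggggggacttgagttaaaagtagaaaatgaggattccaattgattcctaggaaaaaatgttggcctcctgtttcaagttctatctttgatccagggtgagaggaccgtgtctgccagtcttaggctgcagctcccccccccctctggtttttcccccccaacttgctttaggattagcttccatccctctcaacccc
The window of Rarb holds 1 DR5, whose first base lies 53 bases before the start. The promoter of Rarb is known from reporter studies as the classic example of a retinoic acid response element. Windows were found for 42 genes by the same list and symbol form, Nr1h2 among them and Nr3c1 and Nr5a1 not (62 windows), and Rarb was the single one with a DR5, against 0.0974% of all 32851 windows. Single hexamers are common, in 25 of 62 receptor windows and in 43.7% of all windows. Repeats with 1 or 2 bases between (DR1 and DR2) were found in 0 of 62 receptor windows, against 0.222% and 0.268% of all windows. For Nr2f1 a second window, at another annotated start, holds 1 hexamer and no DR5. A match describes letters, and a missing match says only that these letters are not in the window.

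Of the 41 receptor genes 25 were measured on at least 1 array, 61% against 65.3% of all named genes. The other 16, with 33 probe sets, stayed at or below the array medians, with signals up to 29.4 with retinoic acid and up to 23.5 in control. They were Esr2, Esrrg, Hnf4a, Nr0b1, Nr0b2, Nr1h4, Nr1i2, Nr1i3, Nr2e1, Nr3c2, Nr5a1, Nr5a2, Pgr, Ppara, Pparg and Rorb, and no fold is given for them. This group holds the receptors best known from liver, gonad and adrenal gland, such as Hnf4a, the bile acid receptor gene Nr1h4 and the steroidogenic factor gene Nr5a1.

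Among the 25 measured receptors, Rarb, Nr2f2, Nr2f1 and Nr4a3 exceeded a 4-fold ratio of retinoic acid over control, and 0 were 2-fold or more lower. The same 4 genes make up the count at 2-fold, so 4 of 25 (16%) were at least 2-fold higher, against 6.54% of the 11884 measured genes, and 4.34% of those were at least 2-fold lower. At least 4-fold higher were 1.79% of all measured genes. Of the 4, Rarb, Nr2f1 and Nr4a3 were above the median with retinoic acid only, so they could appear in the count only as higher. Among the 19 receptors above the median on both arrays, Nr2f2 alone was at least 2-fold higher, against 6.03% of 10722 such genes, and 0 were at least 2-fold lower, against 4.03%. The median log2 ratio was 0.18 over the 25 and 0.10 over the 19, against 0.0040 over all measured genes and 0.014 over those above both medians. Of the 19, 16 were within 1.5-fold, as were 75.1% of all genes above both medians.

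**Figure D1:**
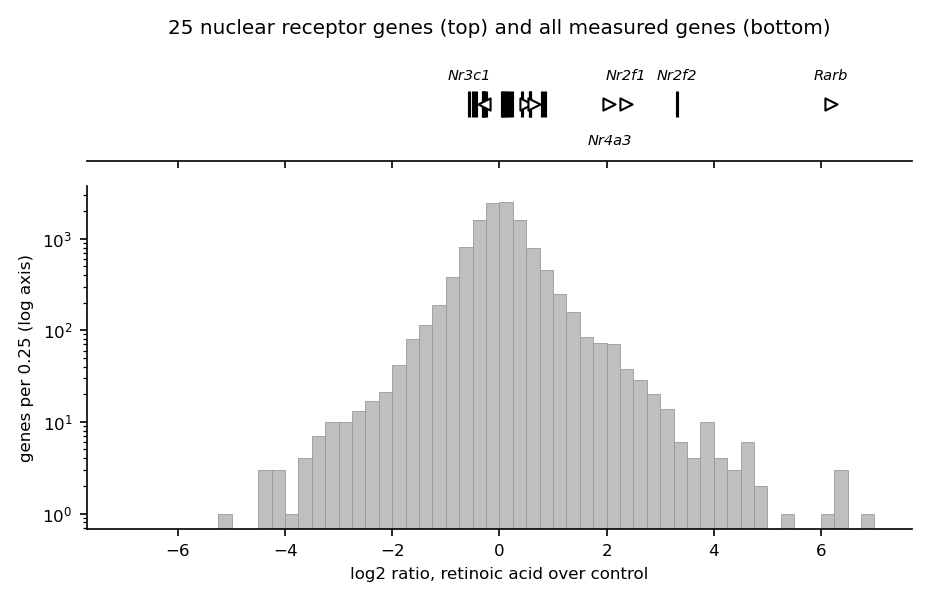
The upper panel marks the log2 ratio (retinoic acid over control) of the 25 measured nuclear receptor genes, with open triangles for bounds that point the way the true ratio can lie, and the lower panel counts all 11884 measured genes in bins of 0.25 on a log axis. Nr4a3, Nr2f1, Nr2f2 and Rarb lie at 2.05 or more, while the other receptors lie between -0.56 and 0.85.

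The 3 RAR genes had unlike ratios. Rarb, the receptor gene that is itself a classic retinoic acid target, had a signal of 1929 with retinoic acid and 5.73 in control, on its single probe set. The control value was below the array median, so Rarb was at least 72.8-fold higher. Rarg, the RAR gene known as the main form in mouse cartilage, had a signal of 596 with retinoic acid and 542 in control, a ratio of 1.10, and its second probe set gave 1.07. Rara, the broadly expressed form, had a signal of 36.8 with retinoic acid and 52.0 in control, 1.42-fold lower, with both values near the array medians and 1 probe set. So the arrays held a large difference for 1 RAR gene and ratios within 1.5-fold for the other two.

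Among the partner genes, Rxra had a signal of 185 with retinoic acid and 250 in control, 1.35-fold lower, and a second probe set with 88.8 and 123 in the same order was 1.39-fold lower. Rxrb, the broadly expressed partner, had 259 with retinoic acid and 250 in control, 1.03-fold higher on 1 probe set. Rxrg, the form best known from muscle and brain, had 41.6 with retinoic acid and 19.9 in control, at least 1.57-fold higher and close to the medians. Rarb was thus the single one of the 6 retinoid receptor genes past 2-fold.

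**Figure D2:**
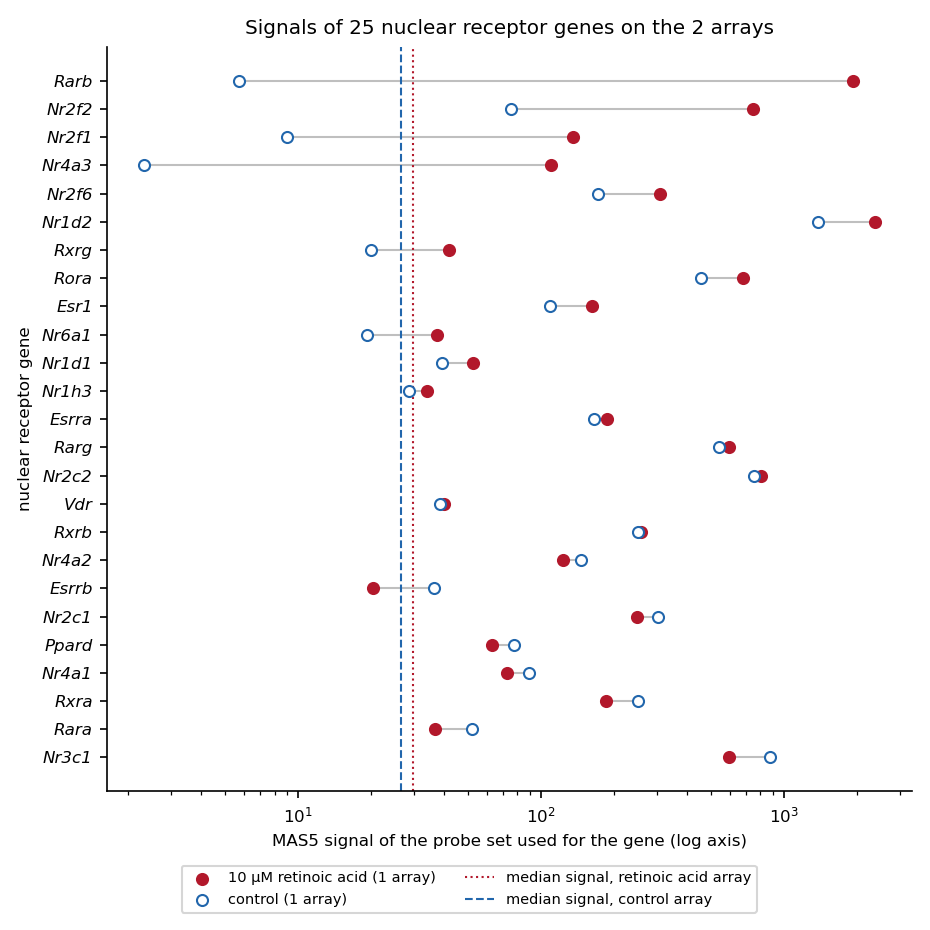
Each row is a measured nuclear receptor gene, with its MAS5 signal on the retinoic acid array (filled red) and on the control array (open blue) on a log axis; the vertical lines are the array medians of 29.7 and 26.5. Rarb, Nr2f1 and Nr4a3 cross both lines between the arrays, Nr2f2 lies above them on both, and most other pairs of points lie close together. Positions are not comparable between rows, because each probe set has its own brightness.

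All 3 measured genes of the COUP transcription factor family, orphan receptors that bind spaced hexamers and can repress transcription, were higher with retinoic acid. Nr2f1 was above the median with retinoic acid only, so it could appear only as higher. The median log2 ratio over the whole array's measured genes was 0.0040, so a ratio above 1 of any size was about as common as one below. Nothing about the family as a whole is read from this count. Nr2f2 (COUP-TFII), known from mesenchyme and venous endothelium, had a signal of 746 with retinoic acid and 75.0 in control, 9.95-fold higher. Its 3 other measured probe sets were above the median with retinoic acid only. They read 226, 157 and 106 with retinoic acid and 16.6, 12.2 and 18.5 in control, at least 8.52-fold, 5.93-fold and 4.00-fold higher. All 4 measured probe sets of Nr2f2 therefore went the same way, and the remaining 2 of its 6 were below the medians on both arrays.

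Nr2f1 (COUP-TFI), known to be induced by retinoic acid in mouse embryonal carcinoma cells, had a signal of 136 with retinoic acid and 8.98 in control on its single probe set, at least 5.13-fold higher. With the floor at the 70th percentile of signal, the bound for Nr2f1 fell to a log2 ratio of 0.16, because 136 lies close above that floor. Nr2f6 (EAR2), the remaining member, had 310 with retinoic acid and 172 in control, 1.80-fold higher, and its second probe set, with 194 and 138 in the same order, was 1.41-fold higher. Of 6 endothelial markers, Kdr alone was measured, at 36.6 with retinoic acid and 25.4 in control. The summed signal of the 6, with 5 below the medians on both arrays, was 91.6 with retinoic acid and 76.7 in control, and Pecam1 was at 2.72 and 2.38, below the medians.

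The 3 NR4A genes, which encode orphan receptors induced within minutes to hours by serum, cAMP and stress, lay on both sides of 1. Nr4a3 (NOR1) had a signal of 110 with retinoic acid and 2.32 in control, at least 4.15-fold higher, on 1 of its 3 probe sets. The other 2 probe sets read 2.40 and 6.08 with retinoic acid and 3.10 and 5.11 in control, all below the medians, so the difference in Nr4a3 rests on 1 probe set. Nr4a1 (NUR77) had 72.3 with retinoic acid and 89.2 in control, 1.23-fold lower. For Nr4a2 (NURR1) the probe set used had 123 with retinoic acid and 146 in control, a log2 ratio of -0.25. Of its 5 measured probe sets 4 were lower and 1 was higher, between -0.55 and 0.21 for those above both medians, so no direction is given.

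The measured receptors of the circadian clock were each higher or had most probe sets higher, by less than 2-fold. The REV-ERB receptors, encoded by Nr1d1 and Nr1d2, repress the clock activator gene Arntl (Bmal1), and the ROR receptors compete with them for the same sites and activate it. Nr1d2 had a signal of 2383 with retinoic acid and 1381 in control, 1.73-fold higher, and its second probe set, with 142 and 122 in the same order, was 1.16-fold higher. Nr1d1 had 52.7 with retinoic acid and 39.2 in control, 1.34-fold higher on 1 probe set. Counted at 1.5-fold, a step chosen after the values were seen, 7 of the 25 measured receptors (28%) were higher and 0 were lower. The shares over all measured genes were 14.3% and 11.4%. The 7 were Rarb, Nr2f2, Nr2f1, Nr4a3, Nr2f6, Nr1d2 and Rxrg. Rarb, Nr2f1, Nr4a3 and Rxrg were above the median with retinoic acid only, so they could appear only as higher. Of the 19 receptors above both medians, 16 were within 1.5-fold, as were 75.1% of all such genes.

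Rora had 8 measured probe sets. The one used for the gene read 677 with retinoic acid and 455 in control, a log2 ratio of 0.57. All 7 probe sets above both medians were higher, by 1.33-fold to 1.79-fold. The eighth, with 9.46 with retinoic acid and 30.2 in control, was just above the control median and gave a bound of -0.02, so the probe sets differ in sign and no direction is given for the gene.

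Steroid receptors were measured for 2 of 5 genes. Nr3c1, which encodes the glucocorticoid receptor, had a signal of 597 with retinoic acid and 881 in control, 1.48-fold lower, the lowest ratio among the 19 receptors above both medians. All 5 measured probe sets of Nr3c1 were lower, by 1.29-fold to 1.71-fold. Their log2 ratios ran from -0.78 to -0.37, against the scatter of 0.30 between probe sets of a gene, and all 5 read the same RNA. Esr1, which encodes estrogen receptor alpha, had 162 with retinoic acid and 109 in control, 1.49-fold higher, and a second probe set with 92.7 and 37.4 in the same order was 2.48-fold higher. The remaining probe set of Esr1 read 21.9 with retinoic acid and 26.8 in control and has no fold, so the size for this gene depends on the probe set. The genes of the second estrogen receptor, the progesterone receptor and the mineralocorticoid receptor (Esr2, Pgr and Nr3c2) were not measured.

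**Figure D3:**
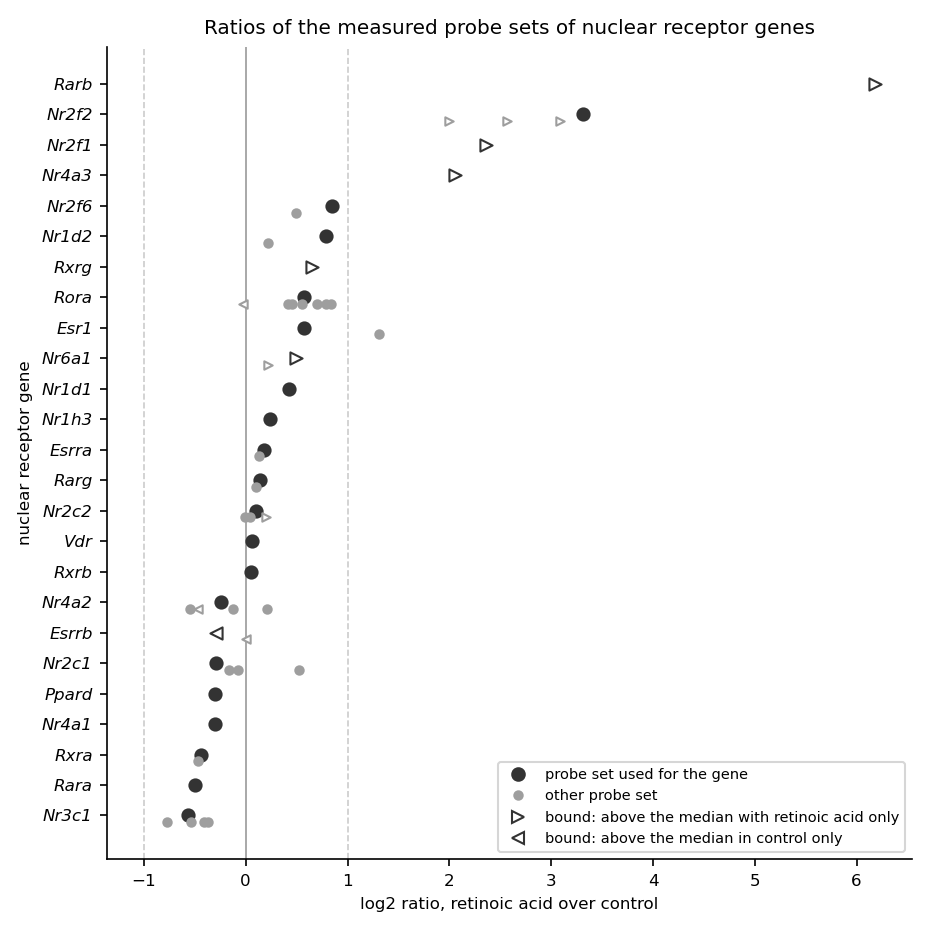
Each point is a measured probe set with its log2 ratio (retinoic acid over control), large and dark for the one used for the gene and small and grey for the others; open triangles are bounds and point away from 0, and dashed lines mark 2-fold. The 4 probe sets of Nr2f2 lie between 2.00 and 3.31, the 5 of Nr3c1 between -0.78 and -0.37, and those of Nr4a2, Nr2c1, Nr2c2 and Rora fall on both sides of 0.

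The lipid, bile acid, drug and vitamin D sensors were mostly at or below the array medians, with 3 of 8 measured. All 3 were within 1.5-fold, as were 75.1% of all genes above both medians. Ppard, whose product senses fatty acids in most tissues, had 63.0 with retinoic acid and 77.7 in control, 1.23-fold lower. Nr1h3 (LXRα), an oxysterol sensor, had 33.9 with retinoic acid and 28.6 in control, 1.18-fold higher. The vitamin D receptor gene Vdr had 40.0 with retinoic acid and 38.3 in control, 1.04-fold higher. These last pairs of signals lie just above the medians. A second probe set of Vdr read 16.4 with retinoic acid and 26.6 in control and has no fold. Pparg, the regulator of fat cell differentiation, read 19.3 with retinoic acid and 11.6 in control and was not measured.

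The remaining receptors differed little or lay close to the medians. Esrra, which encodes a regulator of mitochondrial genes, had 187 with retinoic acid and 165 in control, 1.13-fold higher, with 1.10-fold on a second probe set. Esrrb, known from pluripotent cells, was measured in control only, with 20.3 with retinoic acid and 36.3 in control, at least 1.22-fold lower. Nr6a1 (germ cell nuclear factor) was measured with retinoic acid only, with 37.3 and 19.3 in control, at least 1.41-fold higher. A second probe set of Nr6a1 was at least 1.16-fold higher. The testicular receptor genes Nr2c1 and Nr2c2, broadly expressed in spite of their name, had probe sets on both sides of 0. For Nr2c1 the 4 measured probe sets ran between log2 ratios of -0.30 and 0.52, and for Nr2c2 the 3 above both medians ran between -0.01 and 0.10.

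Genes on which these receptors act were read from lists drawn from general knowledge and chosen with earlier results of these data known. Of all measured genes 6.54% lay past 2-fold on the higher side and 4.34% on the lower side, and their median log2 ratio was 0.0040. The lists are small, and nothing particular to a list is read from its count. In the list of retinoid handling, 10 genes were measured. Of these 5 were higher by 2-fold or more and 0 were lower by that much. The list's median log2 ratio was 1.38, and it was 0.69 with a floor at the 30th percentile. Cyp26b1 and Cyp26a1, which encode enzymes that degrade retinoic acid, were 115-fold and at least 88.0-fold higher. Fabp5, which encodes a carrier of fatty acids and retinoic acid, was 4.34-fold higher, beside Dhrs3 at 4.23-fold and the carrier gene Crabp2 at 3.75-fold.

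A DR5 was found in the windows of 31 genes, Rarb among them, of which 11 are on the array. Of those 5 were measured, 3 lay past 2-fold on the higher side and 0 on the lower side, against 6.54% and 4.34% of all measured genes. Rarb and Cyp26a1 were above the median with retinoic acid only, so they could appear in the count only as higher. Syndig1 was above it in control only and could not appear as higher. Of the genes above both medians, Ppbp was higher and Blvrb lower. The DR5 letters of the 5 measured genes are shown 5′ to 3′ on the strand of the match, with the hexamers in capitals. These genes were chosen by sequence and by being measured on at least 1 array.
Rarb, chr14:16575513-16575529: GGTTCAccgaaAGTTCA
Cyp26a1, chr19:37697776-37697792: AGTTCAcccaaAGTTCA
Ppbp, chr5:90768272-90768288: AGGTCAgacctAGGTCA
Blvrb, chr7:27452399-27452415: AGTTCAaagccAGTTCA
Syndig1, chr2:149830616-149830632: GGGTCAcccctAGTTCA
Cyp26a1 had a signal of 2332 with retinoic acid and 3.86 in control. Ppbp, which encodes a platelet chemokine, had 157 with retinoic acid and 35.5 in control, 4.43-fold higher. Blvrb, which encodes a biliverdin reductase, had 128 with retinoic acid and 181 in control, 1.41-fold lower, and Syndig1 was measured in control only, with 4.44 with retinoic acid and 32.2 in control. Genes with a DR5 in this window thus lay on both sides of 1.

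In the list of genes known as targets of COUP transcription factors, 7 were measured, 3 lay past 2-fold on the higher side and 0 on the lower side, against 6.54% and 4.34% of all measured genes. The list's median log2 ratio was 0.93, against 0.0040 over all measured genes. The bile acid enzyme gene Cyp7b1 was 5.77-fold, the co-receptor gene Nrp1 3.80-fold and the angiopoietin gene Angpt1 2.19-fold higher. Notch1, named after its value was seen, was 1.95-fold lower. The list was not sorted by whether these factors activate or repress a gene. Among 12 measured genes induced by serum or cAMP, as the NR4A genes are, 6 lay past 2-fold on the higher side and 1 on the lower side, beside the same 6.54% and 4.34%, and the list's median was 0.76, between 0.39 and 1.21 under other settings. Fos was 6.56-fold, Dusp1 3.16-fold, Crem 2.80-fold, Pde4b 2.44-fold, Egr1 2.44-fold and Jun 2.19-fold higher, and Atf3 was at least 9.69-fold lower.

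Of 14 measured clock genes 2 lay past 2-fold on the higher side and 1 on the lower side, beside 6.54% and 4.34% of all measured genes. The list's median log2 ratio was -0.42. Hlf, a clock-controlled transcription factor gene, was at least 7.70-fold higher, Bhlhe40, a repressor gene of the clock, 2.35-fold higher and Ciart, another repressor gene, 4.31-fold lower. Arntl, named after its value was seen, had 119 with retinoic acid and 219 in control, 1.83-fold lower. The list holds both activators and repressors of the clock, and the time of day of harvest is not given in the labels.

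**Figure D4:**
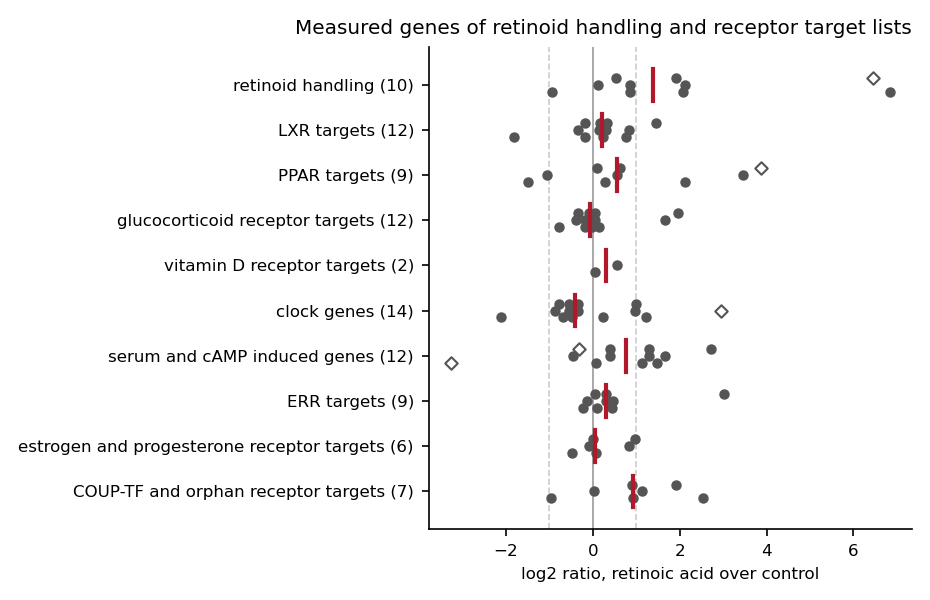
Each point is a measured gene of a list with its log2 ratio (retinoic acid over control), and open diamonds are bounds. Red bars are list medians, dashed lines mark 2-fold and the number of measured genes follows each name. Medians run from -0.42 for the clock genes to 1.38 for retinoid handling, and most lists have genes on both sides of 0.

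Targets of the lipid sensors went both ways. Of 12 measured LXR targets the cholesterol exporter gene Abca1 was 2.76-fold higher and the lipogenic factor gene Srebf1 3.51-fold lower, with a median of 0.20. Of 9 measured PPAR targets 3 lay past 2-fold on the higher side and 2 on the lower side, beside 6.54% and 4.34% of all measured genes, and the list's median was 0.55. Pdk4, which encodes a brake on pyruvate oxidation, was at least 14.6-fold, Fabp4, a fatty acid carrier gene, 11.0-fold and Fabp5 4.34-fold higher, while Lpl was 2.80-fold and Angptl4 2.08-fold lower. Fabp4 is also an adipocyte marker, and the other adipocyte markers on the array, Adipoq, Cidec and Lep, were below the medians on both arrays. The summed signal of these 4 markers was 2708 with retinoic acid and 253 in control, with 3 of the 4 below the medians.

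Of 12 measured glucocorticoid receptor targets 2 lay past 2-fold on the higher side (Errfi1, 3.87-fold, and Dusp1, 3.16-fold) and 0 on the lower side. The shares over all measured genes were 6.54% and 4.34%, and the list's median was -0.058. Of 9 measured targets of the estrogen-related receptors the creatine kinase gene Ckb was 8.09-fold higher and the other 8 were within 2-fold, with a median of 0.30. All 6 measured targets of estrogen and progesterone receptors were within 2-fold, with a median of 0.042. In the vitamin D list 2 of 6 genes were measured, both within 2-fold. Of all genes above both medians, 89.9% were within 2-fold.

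**Figure D5:**
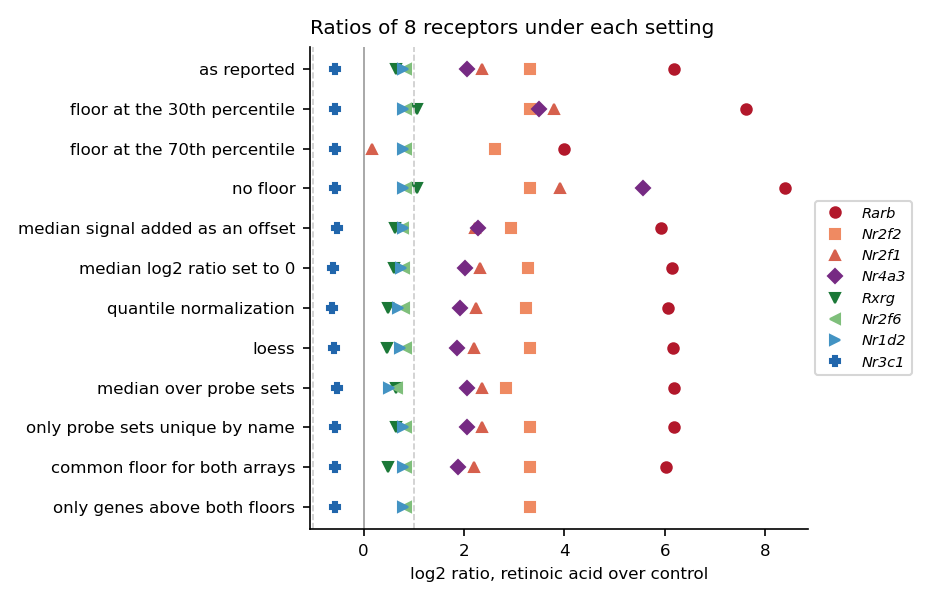
Log2 ratios (retinoic acid over control) of 8 receptors as reported and under 11 other settings of the floor, the scaling between arrays and the choice of probe set; a missing point means that the gene was not measured there, and dashed lines mark 2-fold. Rarb lay between 3.99 and 8.40 and Nr2f2 between 2.62 and 3.31, while the value of Nr2f1 ran from 0.16 to 3.92 with the floor.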

How the data were processed

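Total RNA from 1 retinoic acid and 1 control culture was labelled with biotin from 100 ng and hybridised to 1 array each, per the labels' protocols. Each deposited value is an intensity, the MAS5 signal of a probe set on a linear scale. MAS5 is named in the submitters' processing notes. Neither its version nor a scaling target is given in the sources used here. The values ran up to 13926 and were used with no further scaling. The 2% trimmed means were 193 with retinoic acid and 183 in control, and 18 hybridisation spike-in probe sets had a median ratio of 1.05 (0.863 to 1.15). Precision is limited by the number of arrays.

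Of 45037 probe sets other than controls, 34945 had 1 gene symbol in the platform annotation, 932 had several and 9160 had none; the last 2 kinds were left out. Values at or below the array's median were raised to it before log2 ratios were taken. Where measured probe sets of a gene differ in sign, no direction is given. Members, lists and the naming rule (every member; of other lists genes past 2-fold, up to 6 per direction, and 8 fixed genes) were chosen with earlier results of these data known. Target lists came from general knowledge. Some receptor genes are not reported here. Receptor proteins, planned for comparison, were not used here. The calculation was tested on simulated data. Effects were simulated only in genes with control signals far above the median. Bounds such as those of Rarb, Nr2f1 and Nr4a3, and control signals as low as that of Nr2f2, were therefore not covered. Alternatives covered the floor, an offset, 3 scalings and the choice of probe set; a common floor and only genes above both medians were chosen after seeing the data. The software was Python 3.11.15, numpy 2.4.6, pandas 2.3.3, statsmodels 0.14.6 and matplotlib 3.10.9.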

Additional observations from a re-analysis of the deposited data

How the results depend on the processing

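The count of receptors at least 2-fold higher, 4 as reported, was 7 with a floor at the 30th percentile, 8 with no floor, 2 with a floor at the 70th percentile and 1 with only genes above both medians. The count at least 2-fold lower, 0 as reported, was 1 with the floor at the 30th percentile and 2 with no floor. Under both lower floors Hnf4a and Pgr entered the higher count and Nr5a1 the lower count from signals below the array medians, and the value of Rxrg, already measured, grew to 1.06. With no floor Nr0b1 entered as higher and Nr2e1 as lower. Esrrb, -0.29 as reported, was -0.84 under both, below Nr3c1 at -0.56. At the 70th percentile Nr2f1 had a bound of 0.16 and Nr4a3 was not measured. The 3 scalings, the offset, the choice of probe set and the common floor left the counts at 4 and 0, with the same 4 genes.

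The median log2 ratio of the receptors lay between 0.082 (quantile normalization) and 0.30 (only probe sets unique by name). Of 256 values of single receptors under 11 settings, 17 moved by more than the scatter of 0.30 between probe sets and 0 of those past 2-fold changed sign. Rarb, Nr2f1 and Nr4a3 have bounds, so wherever values were raised to a floor their sign could not reverse. Of the 25 receptors only Vdr changed sign, with 0.063 as reported and values between -0.10 and 0.11, and Rxrb reached 0 under 1 setting. Of the target lists, the median of retinoid handling, 1.38 as reported, was 0.69 at the 30th percentile, 0.74 with no floor and 0.85 both with only probe sets unique by name and with only genes above both medians. The median of serum and cAMP induced genes, 0.76 as reported, was 0.39 at the 30th percentile and with no floor, 1.13 with unique probe sets and 1.21 with genes above both medians. The vitamin D list had -0.67 with no floor, against 0.29 as reported, and the estrogen and progesterone list 0.37 with unique probe sets, against 0.042. No paired analysis was possible because each group has 1 array. Signals of Rara, Rxrg, Nr1h3, Vdr, Esrrb and Nr6a1 lay near the array medians.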

Other observations

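The protein-coding genes on the array that lie next to the 4 receptors furthest above 1 in the RefSeq gene order (GRCm38.p6) were read after the receptor values were known, with no test. Beside Nr2f2, Arrdc4, an arrestin domain gene, had a signal of 188 with retinoic acid and 39.0 in control, 4.81-fold higher, and both of its measured probe sets were higher. On the other side of Nr2f2, Mctp2 had 86.4 with retinoic acid and 36.4 in control, 2.38-fold higher. Beside Nr2f1, Arrdc3, a paralog of Arrdc4, had 1467 with retinoic acid and 259 in control, 5.67-fold higher on 1 probe set, and Pou5f2 had 45.5 and 21.7 in the same order, at least 1.72-fold higher. Of the neighbours read here, Arrdc4, Mctp2 and Arrdc3 were past 2-fold on the higher side, as were 6.54% of all measured genes. That Arrdc3 and Arrdc4 are both arrestin domain genes was picked out after the values were seen. No limit was set on the distance to a neighbour, and distances are not given. Whether neighbours share regulation was not tested. Next to Rarb, Top2b, which encodes a DNA topoisomerase, had 2091 with retinoic acid and 1426 in control, 1.47-fold higher, with all 3 measured probe sets higher. Next to Nr4a3, Sec61b was 1.07-fold lower, and Stx17, with measured probe sets on both sides of 0, had 165 with retinoic acid and 156 in control.

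The NR4A element, AGGTCA with a pair of further A bases directly before it, was found in 1 window each of Rxra and Rxrg and in 1.51% of all windows. Neither gene has a window with a DR5.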
